A study of Bos taurus with 9 samples.

Results

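The comparison described here set cells labelled as bovine endometrial epithelial cells that had received DPPA3 mRNA against cells that had received the transfection reagent without RNA. It used 6 of the 9 RNA sequencing libraries, 3 in each group, and was read across all 14874 genes with enough counts out of 30641 gene symbols. For the DPPA3 mRNA libraries, 500 ng of an in vitro transcribed DPPA3 mRNA was delivered with jetMESSENGER, a reagent for bringing mRNA into cells, 24 hours after seeding. Reagent alone libraries came from cells given jetMESSENGER and no RNA at the same time point. The other 3 libraries were untreated controls, which received neither and entered the same fit. No genotype, animal or age is given, and the labels do not state whether replicates were grown as separate cultures. The p-values therefore reflect the spread between libraries alone, and that spread may be technical. The series holds no second mRNA, so the DPPA3 sequence and the delivery of any mRNA made in vitro cannot be told apart. The labels do not say whether the mRNA carried modified bases, how it was purified or how long after transfection RNA was taken.

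DPPA3, also called Stella, is a protein of oocytes, early embryos and germ cells that protects DNA methylation marks in the zygote and binds UHRF1, a partner of the methyltransferase DNMT1. RNA brought into a cell from outside can be recognised by cytosolic sensors such as RIG-I and MDA5, whose signal passes through MAVS and the factors IRF3 and IRF7 to the interferon genes. Secreted interferons bind receptors that activate a complex holding STAT2 and IRF9, which induces a broad set of antiviral genes. In ruminants the endometrium answers the conceptus through the same genes, since the early pregnancy signal, interferon tau, is a type I interferon.

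The total counts lay between 3890134 and 13258036 per library, and reagent alone replicate 1 was the shallowest. Levels are given as CPM, the count scaled to library size, on TMM-scaled library sizes, and 3 counts corresponded to between 0.226 and 0.747 CPM. Where 3 values follow each other they are replicates 1, 2 and 3. Epithelial keratins were high in all 6 libraries, with KRT8 between 3802 and 4512 CPM and KRT18 between 1565 and 2133 CPM, and CDH1 lay between 37.6 and 58.7 CPM. EPCAM, another defining epithelial marker, had only 20 counts in the 6 libraries. Stromal genes were also high, with COL1A1 between 8085 and 11121 CPM and VIM between 1321 and 1653 CPM. PTPRC, which marks leukocytes, had 0 counts. The 6 of 15 immune cell markers that could be tested summed to 17.4, 29.0 and 22.8 CPM in reagent alone and to 21.5, 21.5 and 27.8 CPM with DPPA3 mRNA, so the groups overlapped in these markers.

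DPPA3 itself came to 9526, 19312 and 18096 CPM in the DPPA3 mRNA libraries, which is 0.953%, 1.93% and 1.84% of all their counts. No read was counted for it in any reagent alone library. The difference was at least 37462-fold, taking 3 counts per library as the floor, with an edgeR adjusted p of 1.42e-08. Replicate 1 was the most deeply sequenced of the 3 and had the lowest DPPA3 level. These reads do not separate the delivered RNA from any transcript of the cells' own gene.

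Beyond DPPA3, the quasi-likelihood test of edgeR, with p-values adjusted over all genes by Benjamini and Hochberg, called no gene at an adjusted p under 0.05. The single call was 0.00672% of the genes tested, and 0 genes were called lower. At an unadjusted p under 0.05, 189 genes (1.27%) were higher and 59 (0.397%) lower with DPPA3 mRNA. The total of 248 ranged from 208 to 895 across the alternative fits. The lowest adjusted p after DPPA3 was 0.312, for the membrane protein gene IFITM1, and every statement below that a gene was higher or lower without a call describes values that did not pass this test. DESeq2's Wald test called 9 genes (0.0606%), all higher, and limma voom with quality weights called 1. The DESeq2 calls other than DPPA3 were IFITM1, IFI6, OAS1X, DHX58, TNFSF10, ENO4, LOC100298356 and LOC512486. Without the filter on low counts edgeR called 66 genes (0.297%), of which 59 were higher and 40 belonged to interferon response lists. Among the 40, IFI44, PLAC8 and OAS1Z had missed the filter, and most of their counts were in DPPA3 mRNA replicate 2. With a replicate block it called 2 (0.0134%), and the second was IFITM1.

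The number of calls depended on DPPA3 mRNA replicate 1. Without that library edgeR called 20 genes (0.13%), all higher, and 13 of them were interferon response genes. These were the antiviral effectors MX1, OAS1X, OAS1Y and RSAD2, the ubiquitin-like modifier ISG15, IFI6, IFI27 and IFITM1, the sensors DHX58 and ZBP1, the ISG15-activating enzyme UBA7, RTP4 and SAMD9. Without replicate 2 it called 2 genes (0.013%), DPPA3 and ENO4, and without replicate 3 only DPPA3 (0.00652%). Leaving out any 1 reagent alone library left DPPA3 as the only call (0.00651% to 0.00652%).

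**Figure D1:**
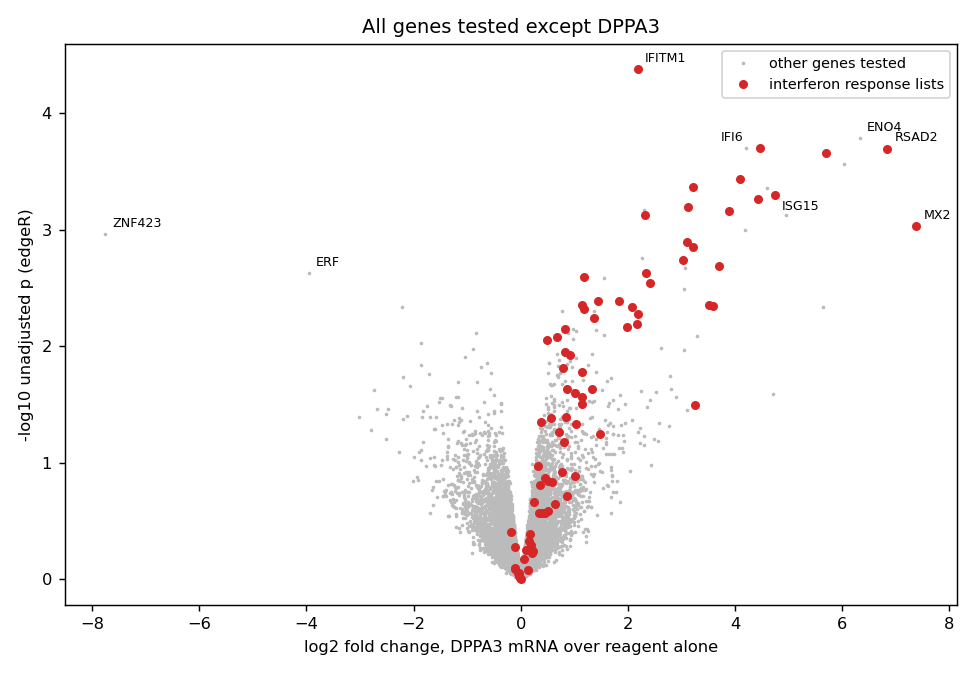
Each point is 1 of the genes tested except DPPA3, with the log2 fold change of DPPA3 mRNA over reagent alone on the horizontal axis and the negative log10 of edgeR's unadjusted p on the vertical axis. Interferon response genes are red; 73 of the 82 lie to the right of 0, and ZNF423 and ERF are far to the left.

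The 7 lists of interferon response genes, from sensors to effectors, were read together as well as singly. Of their 106 members 98 were in the table and 82 had enough counts to be tested. The mean was higher with DPPA3 mRNA for 73 of the 82 (89%), against 50.4% of all genes tested, and the median log2 fold change was 0.87, against 0.0027 over all genes. At an unadjusted p under 0.05 there were 47 members (57.3%), all higher, against 1.27% of all genes on the higher side, and after adjustment none. In 25 members (30.5%) every DPPA3 mRNA library lay above every reagent alone library, against 4.91% of all genes, and in 0 members did every library lie below, against 3.99%. A further limit concerns 5 of the 82: MX2, RSAD2, RTP4, XAF1 and GBP4 reached the count minimum only through the DPPA3 mRNA libraries, so they could pass only by being high there. Of these, MX2, RSAD2, RTP4 and XAF1 were among the 25 members without overlap.

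The 3 DPPA3 mRNA libraries differed widely in these genes. The 82 members together took 0.296%, 1.01% and 0.419% of all counts with DPPA3 mRNA. Reagent alone stood at 0.281%, 0.277% and 0.321%, and untreated controls at 0.236%, 0.289% and 0.294%. Replicate 1 was thus inside the range of reagent alone, while replicates 2 and 3 were above it. The exact 95% binomial interval was 0.293% to 0.299% for replicate 1 and 0.416% to 0.423% for replicate 3, and such intervals cover counting error only. The median member stood at 0.19, 1.58 and 0.44 log2 units over the reagent alone mean. In bulk RNA, fewer responding cells and less RNA per cell cannot be told apart.

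**Figure D2:**
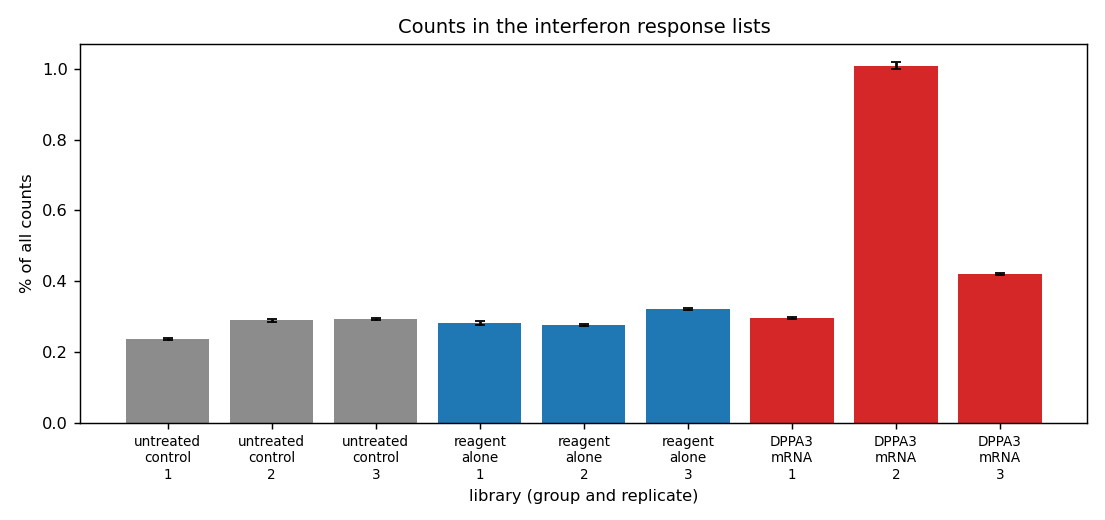
Bars give the percentage of all counts taken by the 82 tested interferon response genes in each of the 9 libraries, and error bars are exact 95% binomial intervals, which cover counting error only. DPPA3 mRNA replicate 2 stands at 1.01% and replicate 3 at 0.419%, while replicate 1, at 0.296%, is inside the range of reagent alone.

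Counted gene by gene, replicate 2 exceeded every reagent alone library in 68 of the 82 members (82.9%), against 22.9% of all genes. Replicate 3 did so in 54 (65.9%), against 23.9%, and replicate 1 in 35 (42.7%), against 27.9%. A level of at least 2-fold over the highest reagent alone library was reached by 50 members (61%) in replicate 2, against 1.07% of all genes. In replicate 3 it was reached by 18 (22%), against 0.74%, and in replicate 1 by 3 (3.66%), against 0.874%. Those 3 were RSAD2, OAS1X and MX2, and of them RSAD2 and MX2 had passed the filter only through the DPPA3 mRNA libraries. In the other direction 9, 3 and 7 members lay below every reagent alone library in replicates 1 to 3, against 27.5%, 20.4% and 22.8% of all genes. The order of the libraries was also shared among members: 57 of 82 (69.5%) were highest in replicate 2, next in replicate 3 and lowest in replicate 1, against 22.4% of all genes. Both this order and the pooling of the lists were chosen after the values were seen, so the share is descriptive only. DPPA3 followed the same order, but its levels in replicates 2 and 3 were close while those of the interferon response genes were not. Whether the amount of DPPA3 mRNA bears on the response was not tested. The median log2 fold change of the 82 was 0.33 without replicate 2 and 1.14 without replicate 1.

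The OAS, IFIT and MX effectors, which degrade or bind foreign RNA or block virus assembly, had the largest differences. All 10 tested of 14 were higher on average, 9 at an unadjusted p under 0.05 (1.27% of all genes were higher at that p), with a median log2 fold change of 3.46. In 6 of the 10 the groups did not overlap, against 4.91% of all genes, and 2 of these 6, RSAD2 and MX2, had passed the filter only through the DPPA3 mRNA libraries. Without replicate 2 all 10 were still higher on average, with a median of 1.67. RSAD2, which encodes the antiviral enzyme viperin, stood at 8.82, 225 and 7.21 CPM with DPPA3 mRNA and at 0, 0.629 and 1.02 CPM with reagent alone. Every DPPA3 mRNA library was above every reagent alone library, and replicate 2 exceeded the other two by 25.5 times or more. The log2 fold change was 6.84 (SE 1.35, edgeR adjusted p = 0.467), and it came to 3.60 without replicate 2.

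OAS1X, a synthetase of the 2-5 oligoadenylates that switch on RNase L, lay at 2.49, 85.0 and 18.2 CPM against 0.498, 0.18 and 1.18 CPM. The groups did not overlap, although untreated control replicate 3, at 5.18 CPM, was above DPPA3 mRNA replicate 1. The log2 fold change was 5.70 (SE 1.13, edgeR adjusted p = 0.467, and 0.0156 by DESeq2). MX1, a dynamin-like GTPase that traps viral nucleocapsids and a classical marker of interferon tau in ruminants, lay at 27.9, 669 and 116 CPM against 8.72, 10.1 and 27.1 CPM. Replicate 1 was only just above reagent alone replicate 3. The log2 fold change was 4.10 (SE 0.86, edgeR adjusted p = 0.585). Without replicate 2 it came to 3.95 for OAS1X and 2.20 for MX1.

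MX2 had 19, 428 and 20 counts with DPPA3 mRNA against 0, 0 and 2 with reagent alone. The ratio of the summed levels was 180, with an exact 95% counting interval of 49.6 to 1491 that covers counting error only. Most of the counts were in replicate 2, and the fitted log2 fold change of 7.38, which depends on the prior count, was 4.28 without that library. IFIT2, a tetratricopeptide protein that acts against foreign RNA, stood at 12.2, 163 and 12.5 CPM against 1.74, 1.44 and 10.005 CPM. Replicates 1 and 3 were near reagent alone replicate 3, and replicate 2 was far above all others. OAS1Y stood at 18.5, 253 and 76.2 CPM against 11.5, 6.65 and 18.7 CPM, so here replicate 1 overlapped with reagent alone. OAS1X, OAS1Y and OAS1Z are close copies, and how the authors' counting divided reads among them is not stated.

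**Figure D3:**
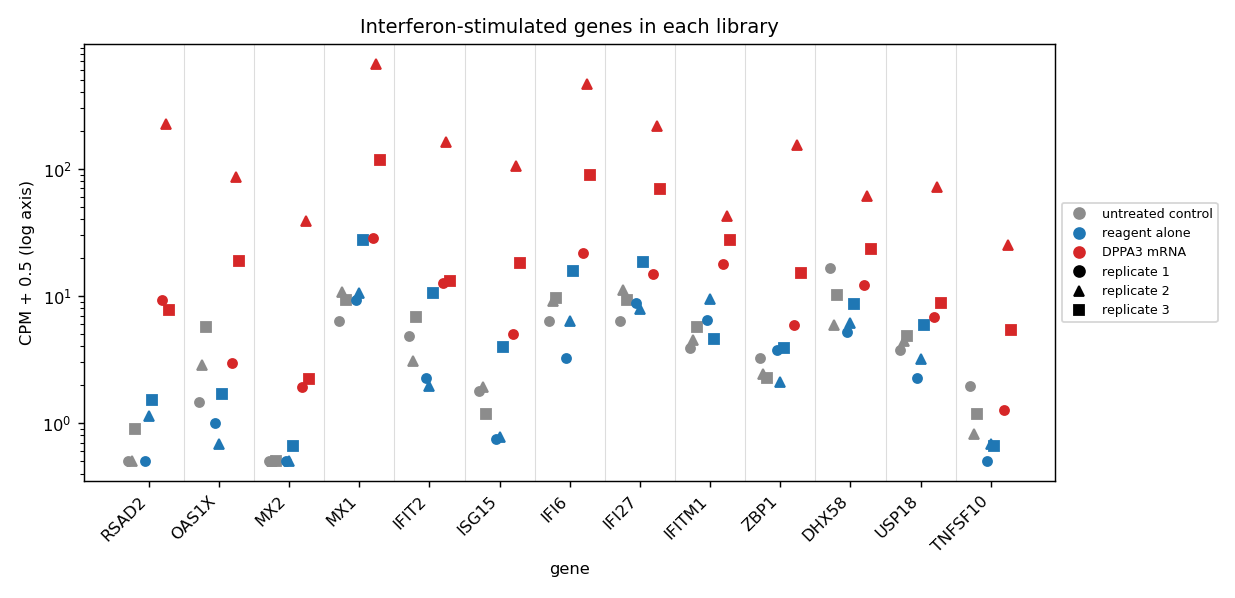
Level of 13 genes, TNFSF10 and 12 of the interferon response genes, in each of the 9 libraries, as CPM + 0.5 on a log axis, with colour for the group and the marker shape for the replicate. The highest point of each gene is DPPA3 mRNA replicate 2, and replicate 1 lies nearer to reagent alone than replicate 2 does.

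Small membrane effectors followed, with 5 of 6 tested members higher on average, 3 of them without overlap (4.91% of all genes), and a median log2 fold change of 1.83. Without replicate 2 the median was 1.10. IFITM1, which restricts the entry of enveloped viruses, stood at 17.4, 42.3 and 27.0 CPM with DPPA3 mRNA and at 5.98, 8.89 and 4.10 CPM with reagent alone. All DPPA3 mRNA libraries were above all reagent alone and untreated libraries, and even replicate 1 was 1.96 times the highest reagent alone library. The log2 fold change was 2.19 (SE 0.37, edgeR adjusted p = 0.312). With the replicate block it was 2.20 (SE 0.30) and edgeR's adjusted p was 0.0389, which passed the test. By DESeq2 the adjusted p was 6.91e-05.

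IFI6, a mitochondrial and endoplasmic reticulum protein, lay at 21.3, 461 and 88.8 CPM against 2.74, 5.84 and 15.3 CPM, without overlap. Its log2 fold change was 4.47 (SE 0.88, edgeR adjusted p = 0.467), and 2.71 without replicate 2. IFI27 lay at 14.4, 217 and 68.6 CPM against 8.22, 7.37 and 17.9 CPM, and only replicates 2 and 3 were above reagent alone. IFITM3 was low throughout, at 1.36, 6.41 and 1.53 CPM against 1.25, 1.08 and 1.02 CPM, and untreated controls ranged from 0.758 to 2.74 CPM.

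ISG15 is a ubiquitin-like protein that is attached to other proteins by UBA7, UBE2L6 and HERC ligases. All 6 members of this list were higher on average, 4 at an unadjusted p under 0.05 (1.27% of all genes), but the groups were separate only for ISG15 itself. Its levels were 4.52, 105 and 17.6 CPM against 0.249, 0.269 and 3.47 CPM, a log2 fold change of 4.74 (SE 1.04, edgeR adjusted p = 0.62), which was 2.87 without replicate 2. The activating enzyme UBA7 stood at 12.7, 158 and 41.0 CPM against 13.2, 12.2 and 16.4 CPM. Replicate 1 of UBA7 was level with reagent alone, and the median over the 6 members was -0.09 in that library, against 1.88 and 0.42 in replicates 2 and 3. The median log2 fold change was 1.002, and 0.18 without replicate 2, where 5 of the 6 were higher.

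Among RNA and DNA sensors and their adaptors, 10 of 16 tested members were higher on average, 8 at an unadjusted p under 0.05 (1.27% of all genes), with a median log2 fold change of 0.75 that was 0.28 without replicate 2. ZBP1, a sensor of left-handed nucleic acids that can start cell death, stood at 5.43, 155 and 14.6 CPM against 3.24, 1.62 and 3.39 CPM. The groups did not overlap, and the log2 fold change was 4.43 (SE 0.98, edgeR adjusted p = 0.62) and 1.88 without replicate 2. DHX58, which encodes the RIG-I relative LGP2, stood at 11.7, 60.4 and 22.8 CPM against 4.73, 5.57 and 8.11 CPM. Its groups were separate too, but untreated control replicate 1, at 16.0 CPM, was above DPPA3 mRNA replicate 1.

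The sensors that bind foreign RNA in the cytosol showed the same order of libraries. DDX58, the gene of RIG-I, stood at 30.5, 309 and 86.3 CPM against 28.1, 25.9 and 46.4 CPM. IFIH1, the gene of MDA5, stood at 8.14, 89.6 and 18.7 CPM against 5.23, 7.46 and 12.1 CPM. In both genes replicate 1 was inside the range of reagent alone and replicates 2 and 3 were above it. EIF2AK2, the gene of the RNA-activated kinase PKR, stood at 106, 536 and 200.2 CPM against 118, 146 and 147 CPM, so replicate 1 was below all 3 reagent alone libraries. TRIM25, a ubiquitin ligase that helps activate RIG-I, was at 80.9, 149 and 89.1 CPM against 73.7, 57.8 and 68.9 CPM. Untreated controls of TRIM25 stood at 98.3, 78.9 and 92.3 CPM, so DPPA3 mRNA replicates 1 and 3 were inside their range. The adaptor genes MAVS, TICAM1, MYD88, TRAF3 and TMEM173 exceeded the highest reagent alone library in none of the 3 DPPA3 mRNA libraries. They were named after their values were seen, and TBK1, IKBKE and CGAS did exceed it in 1 library each.

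Signalling and feedback genes differed less, with a median log2 fold change of 0.36, which was 0.20 without replicate 2. Of 13 tested members 12 were higher on average, against 50.4% of all genes. USP18, which removes ISG15 and dampens receptor signalling, stood at 6.33, 71.2 and 8.23 CPM against 1.74, 2.69 and 5.44 CPM, without overlap. IRF9, the DNA-binding partner of STAT2, stood at 37.6, 105 and 61.5 CPM against 26.9, 24.8 and 38.0 CPM. Replicate 1 of IRF9 lay within the reagent alone range. STAT2 was at 38.6, 47.9 and 40.9 CPM against 32.6, 30.4 and 34.7 CPM, a small difference without overlap. No DPPA3 mRNA library was above the highest reagent alone library for JAK1 or SOCS3, which were named after their values were seen.

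Genes of the PARP family and of nuclear bodies, many of which act on viral RNA or chromatin, had all 12 tested members higher on average, 9 of them at an unadjusted p under 0.05 (1.27% of all genes), with a median log2 fold change of 1.08. Without replicate 2 only 9 of the 12 were higher and the median was 0.48. DTX3L, a ubiquitin ligase that pairs with PARP9, stood at 8.67, 94.3 and 19.2 CPM against 7.22, 8.98 and 6.46 CPM. PARP14 stood at 51.2, 375 and 105 CPM against 48.1, 41.4 and 59.6 CPM. Replicate 1 overlapped with reagent alone in both genes, whereas PARP10, PARP12, PML and TRIM56, the last named after its values were seen, were separate. PML, which organises nuclear bodies, was at 60.8, 190.1 and 86.5 CPM against 41.8, 49.6 and 60.7 CPM, so replicate 1 and the highest reagent alone library were nearly equal. Untreated controls of PML stood at 95.2, 63.5 and 87.1 CPM, all above DPPA3 mRNA replicate 1. PARP10 stood at 78.3 CPM in untreated control replicate 1, above DPPA3 mRNA replicates 1 and 3, at 51.3 and 72.7 CPM.

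Of 19 other interferon-stimulated genes tested, 18 were higher on average and 9 had an unadjusted p under 0.05 (1.27% of all genes), with a median log2 fold change of 0.78. Without replicate 2 the median was 0.245. SAMD9, an antiviral protein that acts on translation, stood at 8.52, 122 and 14.3 CPM against 4.98, 5.12 and 6.38 CPM. RTP4, a receptor chaperone, stood at 2.26, 35.1 and 6.54 CPM against 1.25, 0.539 and 1.26 CPM. Both were separate between the groups, as was XAF1, but RTP4 and XAF1 had passed the filter only through the DPPA3 mRNA libraries. ZNFX1, an RNA helicase, stood at 171, 828 and 260.5 CPM against 141, 158 and 187 CPM, with replicate 1 inside the reagent alone range.

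Members that missed the count minimum were not all alike. IFI44 had 10, 267 and 17 counts with DPPA3 mRNA and 0, 0 and 5 with reagent alone. PLAC8 had 8, 148 and 16 counts against 0, 0 and 3, and OAS1Z had 5, 125 and 17 against 0, 0 and 1. Most counts of these 3 genes were in replicate 2. IRF8, with 13, 5 and 2 counts against 0, 1 and 9, and BATF2, with 18, 8 and 0 against 0, 0 and 6, were highest in replicate 1. PLSCR1 had 0, 5 and 4 counts against 1, 13 and 0, more in reagent alone. These members, named after their values were seen, were not tested in the main fit, because too few libraries reached the count minimum. The fit without the filter did test them and called IFI44, PLAC8 and OAS1Z, with edgeR adjusted p of 3.99e-08, 2.47e-05 and 2.43e-05.

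The interferon and receptor genes that could be tested did not show this pattern. They included the receptor genes IFNAR1, IFNAR2, IFNGR1, IFNGR2 and IL10RB and, of the interferons, IFNE. Of 14 members fixed, 8 were tested, 2 were higher on average, and the median log2 fold change was -0.20. The receptor gene IFNAR1 was at 37.7, 48.1 and 47.6 CPM against 44.3, 60.4 and 50.8 CPM, and IFNAR2 at 27.7, 26.4 and 24.1 CPM against 48.3, 24.5 and 29.8 CPM. Groups overlapped for both. IFNE, the epithelial interferon epsilon, was low, at 2.56, 1.72 and 1.95 CPM against 1.74, 1.26 and 1.89 CPM. No read was counted for IFNB1, IFNL3 or IFNG.

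Antigen presentation genes, which interferons also raise, differed by small amounts, with a median log2 fold change of 0.29, but mostly upward. Of 19 tested members 16 were higher on average, against 50.4% of all genes. At an unadjusted p under 0.05 there were 2, both higher, against 1.27% of all genes on the higher side. In 4 members the groups did not overlap, against 4.91% of all genes. BOLA-NC1, a non-classical class I gene, stood at 33.5, 33.8 and 27.8 CPM against 20.2, 20.7 and 20.6 CPM. Here the 3 DPPA3 mRNA libraries were close to each other and separate from reagent alone, but untreated controls ranged from 17.9 to 39.0 CPM. TAP1, a peptide transporter subunit, was at 14.7, 19.5 and 10.4 CPM against 8.47, 10.6 and 8.03 CPM, with overlap. Class I genes of cattle are close copies, so reads may be divided among them. In the immune proteasome list 8 of 10 members were higher on average (50.4% of all genes) and none had an unadjusted p under 0.05. PSMB8, an inducible catalytic subunit, stood at 32.9, 39.6 and 24.9 CPM against 27.6, 17.7 and 24.3 CPM, which overlapped.

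The death ligand TNFSF10, also called TRAIL, stood at 0.754, 24.5 and 4.92 CPM with DPPA3 mRNA against 0, 0.18 and 0.158 CPM with reagent alone. The groups did not overlap, but untreated control replicate 1, at 1.45 CPM, was above DPPA3 mRNA replicate 1. TNFSF10 had 9, 3 and 7 counts in untreated controls and 0, 2 and 2 with reagent alone. It reached the count minimum only through the DPPA3 mRNA libraries, so it could pass only by being high there. The log2 fold change was 6.03 (SE 1.23, edgeR adjusted p = 0.504, and 0.0335 by DESeq2), and 4.24 without replicate 2. Over the 15 tested death ligand and receptor genes the median log2 fold change was -0.02, and 7 were higher on average.

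Of the NF-kB targets, cytokines and chemokines, 11 of 17 tested members were higher on average, none at an unadjusted p under 0.05, and the median log2 fold change was 0.13. VCAM1, an adhesion molecule, stood at 4.98, 5.96 and 6.20 CPM against 4.73, 2.69 and 2.60 CPM, separate by a small margin. CXCL5, a neutrophil chemokine, was at 158, 232 and 200.4 CPM against 214, 241 and 266 CPM. CXCL10, an interferon-induced chemokine named after its values were seen, was at 2.26, 17.7 and 5.86 CPM against 2.99, 10.3 and 8.11 CPM. CXCL10 was above reagent alone in replicate 2 and below all 3 reagent alone libraries in replicate 1.

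Several genes outside the lists carried the same order of libraries. List members were matched by gene symbol, so whether these LOC genes are themselves interferon-stimulated was not examined. LOC100298356 stood at 6.26, 80.2 and 14.5 CPM against 0.747, 1.35 and 2.84 CPM, a log2 fold change of 4.20 (SE 0.83, edgeR adjusted p = 0.467), which was 2.55 without replicate 2. LOC112441507, its neighbour in the RefSeq gene order, stood at 5.81, 124 and 15.7 CPM against 1.25, 0.808 and 3.47 CPM. LOC100139670, which lies between IFIT3 and IFIT5 in that order, stood at 8.22, 230.4 and 28.9 CPM against 12.7, 9.07 and 11.03 CPM. The first 2 were separate between the groups, and the third was below reagent alone in replicate 1. LOC112441507 had 0, 4 and 9 counts in untreated controls and 5, 9 and 44 with reagent alone. It reached the count minimum only through the DPPA3 mRNA libraries, so it could pass only by being high there. LOC509283, abundant in all libraries, was at 290.5, 1451 and 494 CPM against 233, 225 and 301 CPM. LOC512486, called by DESeq2, had another order, at 7.99, 18.6 and 3.82 CPM against 2.49, 2.16 and 1.65 CPM.

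ENO4, an enolase-like gene known from sperm, did not follow the interferon response genes. It stood at 340.3, 6.14 and 1355 CPM with DPPA3 mRNA, against 5.73, 8.80 and 6.22 CPM with reagent alone and 5.64, 10.5 and 9.97 CPM in untreated controls. Replicates 1 and 3 were 38.7 and 154 times the highest reagent alone library, and replicate 2, which had the highest interferon response, was at the reagent alone level. Its log2 fold change was 6.33 (SE 1.22, edgeR adjusted p = 0.467). Without replicate 2, the library in which it was not high, it was 6.91 (SE 0.50, edgeR adjusted p = 2.44e-05). Without replicate 1 it was 6.58 (edgeR adjusted p = 0.083) and without replicate 3 it was 4.62 (edgeR adjusted p = 0.366), neither of which passed. Its RefSeq neighbours HSPA12A and SHTN1 had log2 fold changes of -0.18 and -0.09.

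Some large differences came from 1 library. LOC107132895 stood at 159.9, 1.08 and 0.849 CPM against 3.49, 0.719 and 0.315 CPM, high in DPPA3 mRNA replicate 1 alone. Its log2 fold change of 5.63 became -0.44 without that library. On the other side, ZNF423, a zinc finger transcription factor, was at 2.34, 2.08 and 2.80 CPM against 2.49, 1555 and 3.07 CPM. ERF, an ETS family repressor, was at 135, 113 and 128 CPM against 243, 5489 and 93.7 CPM. Both were high in reagent alone replicate 2, and without it the log2 fold change went from -7.75 to -0.23 for ZNF423 and from -3.96 to -0.42 for ERF. LOC104973519 was high in reagent alone replicate 1, at 113 CPM, and its log2 fold change of -2.19 became 0.21 without it. ENO4, LOC107132895, ZNF423, ERF and LOC104973519 were nevertheless among the 66 genes called without the filter.

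**Figure D4:**
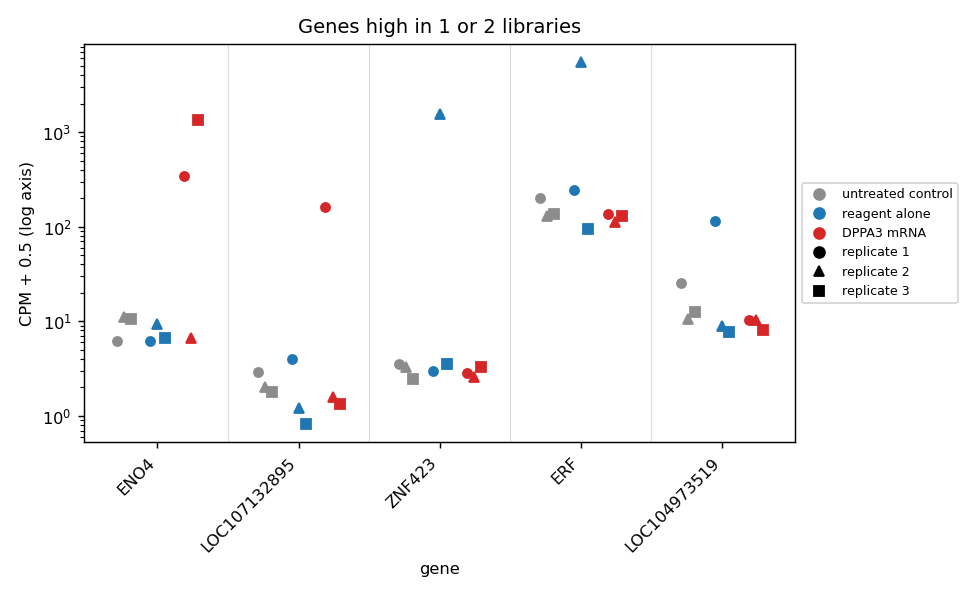
Level of 5 genes in each of the 9 libraries, as CPM + 0.5 on a log axis, with colour for the group and the marker shape for the replicate. ENO4 is high in DPPA3 mRNA replicates 1 and 3, LOC107132895 in DPPA3 mRNA replicate 1, ZNF423 and ERF in reagent alone replicate 2, and LOC104973519 in reagent alone replicate 1.

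Among the lower genes, small differences that every library shared were more even. DNAJA4, a co-chaperone of HSP70, stood at 12.7, 13.3 and 12.6 CPM with DPPA3 mRNA against 22.7, 21.2 and 16.1 CPM with reagent alone. This was a log2 fold change of -0.63 (SE 0.22). MXD1, which competes with MYC for its partner, stood at 19.7, 19.1 and 21.9 CPM against 34.6, 29.6 and 25.1 CPM. SLC38A6, an amino acid transporter, stood at 5.96, 9.12 and 8.997 CPM against 13.7, 11.6 and 14.7 CPM, and untreated controls lay between 5.80 and 7.04 CPM. MXD1 lay between 19.8 and 24.2 CPM in untreated controls. In both MXD1 and SLC38A6 it was the reagent alone libraries that stood apart from both other groups. EDN2, the gene of the peptide endothelin 2, was the reverse: it lay at 5.96, 6.14 and 2.89 CPM against 2.24, 1.71 and 1.97 CPM, and at 5.64, 6.17 and 4.50 CPM in untreated controls. Both DPPA3 mRNA against reagent alone and reagent alone against untreated control use the same reagent alone libraries, so these are not independent readings. The second of these comparisons called 0 of 14874 genes by edgeR, with 1516 at an unadjusted p under 0.05 and 2 called by DESeq2. At that unadjusted p DPPA3 mRNA against reagent alone had 248.

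Over the 3 libraries together, the lists for other cellular responses had medians near that of all genes. Median log2 fold changes were -0.04 for the integrated stress response, -0.03 for the unfolded protein response, -0.09 for p53 targets and -0.04 for heat shock, each with 0 members at an unadjusted p under 0.05. They were 0.02 for endosome and lysosome genes, -0.05 for cholesterol synthesis and uptake, 0.10 for the cell cycle and -0.02 for RNA decay and translation control. Single libraries departed further. The counts by library that follow were picked after the values were seen. In replicate 1, 11 of 18 cholesterol genes lay below every reagent alone library and 1 above, against 27.5% of all genes below. Of 13 heat shock genes 8 lay below in replicate 1 and 2 above. For RNA decay and translation control 12 of 20 lay below in that library and 2 above. Immediate early genes had 10 of 16 above there and 2 below, against 27.9% above. In replicate 3, 10 of 16 p53 targets and 9 of 16 unfolded protein response genes lay below, with 2 of each list above, against 22.8% of all genes below. Replicate 1 medians were -0.28 for cholesterol, -0.19 for heat shock, -0.19 for RNA decay and 0.29 for immediate early genes, beside 0.19 for the pooled interferon response members. HSPA5, the main chaperone of the endoplasmic reticulum, stood at 505, 546 and 526 CPM against 583, 591 and 559 CPM, lower in all 3 libraries by a log2 fold change of -0.14 (SE 0.15). Its DPPA3 mRNA values were inside the range of untreated controls, 400 to 563 CPM. SLC7A11, a cystine transporter of the stress response, was at 14.7, 20.3 and 8.15 CPM against 24.1, 27.6 and 14.6 CPM. ZFP36, an immediate early gene whose product destabilises cytokine mRNAs, was at 13.0, 15.8 and 16.0 CPM against 11.2, 8.17 and 10.2 CPM, without overlap. Untreated controls of ZFP36, at 14.8, 12.2 and 11.9 CPM, were also above reagent alone.

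**Figure D5:**
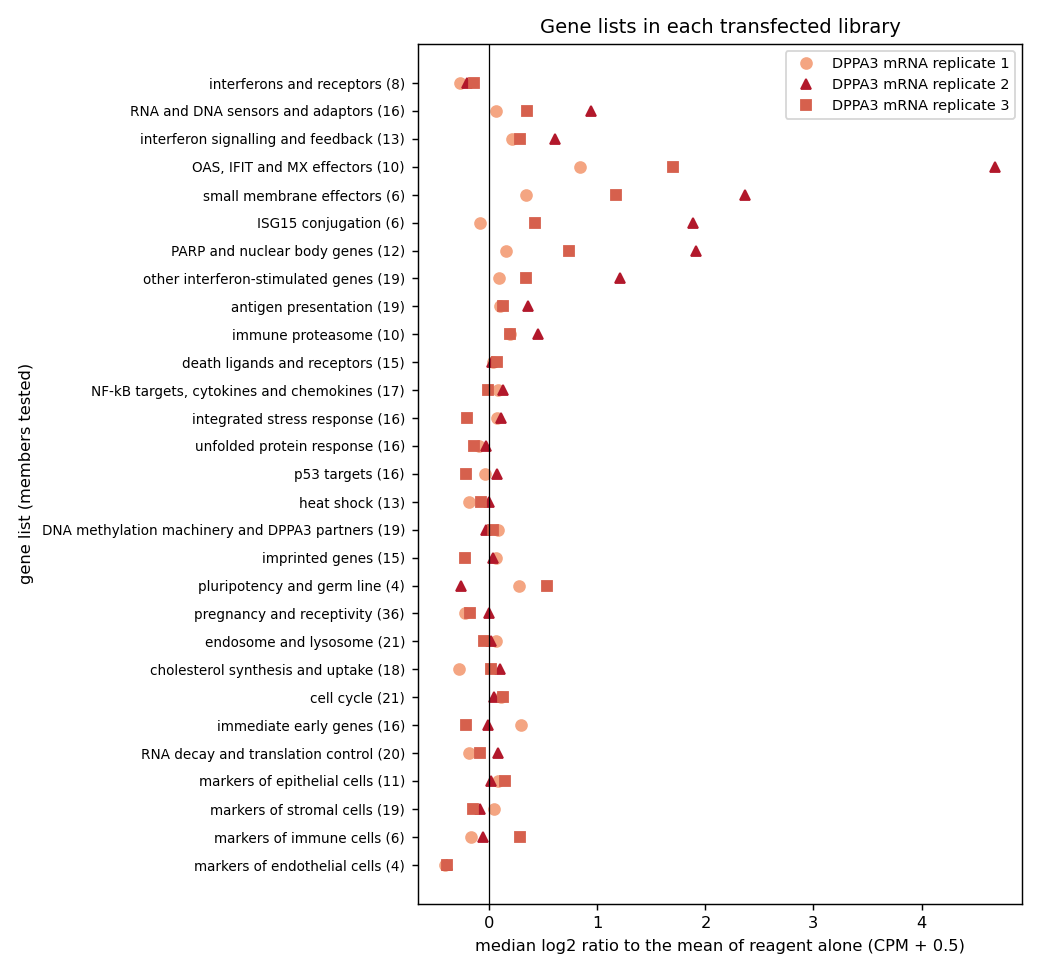
Each row is 1 of the 29 gene lists with its number of tested members, and each marker is the median, over those members, of the log2 ratio of 1 DPPA3 mRNA library to the mean of reagent alone, computed on CPM + 0.5. The OAS, IFIT and MX effectors reach 0.84, 4.68 and 1.70 in replicates 1 to 3, and the stress, methylation and pregnancy lists lie between -0.23 and 0.11. In replicate 1 the cholesterol list is at -0.28 and the immediate early list at 0.29.

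The genes through which DPPA3 is known to act, and their relatives, were split between higher and lower. Over 19 tested genes of DNA methylation and DPPA3 partners, 10 were higher on average, none had an unadjusted p under 0.05, and the median log2 fold change was 0.03. UHRF1 and DNMT1 were named after their values were seen. UHRF1 stood at 37.2, 26.9 and 41.5 CPM against 27.6, 29.3 and 38.8 CPM, and DNMT1 at 91.0, 90.2 and 103 CPM against 106, 94.5 and 86.2 CPM. Both overlapped between the groups. TRIM28, a corepressor at imprinted genes, was at 369, 293 and 324 CPM against 288, 282 and 279 CPM, separate, but untreated controls reached 510.0 CPM. TDG, a glycosylase of active demethylation, was at 14.3, 23.2 and 19.3 CPM against 17.7, 32.5 and 26.2 CPM.

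Of 15 imprinted genes tested, 7 were higher on average, with a median log2 fold change of -0.01. NDN was nearly silent, with 4, 0 and 5 counts against 6, 14 and 9. NAP1L5 stood at 7.84, 5.60 and 5.35 CPM against 2.99, 3.59 and 4.41 CPM, without overlap, and at 5.00, 8.66 and 3.62 CPM in untreated controls. Only 4 of 23 pluripotency and germ line genes had enough counts to be tested; 3 were higher on average, the median log2 fold change was 0.61, and none had an unadjusted p under 0.05. Leaving out 1 DPPA3 mRNA library gave medians from 0.38 to 0.91.

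Genes of pregnancy recognition and receptivity, the setting in which embryo signals act on the endometrium, were spread evenly: 17 of 36 tested members were higher on average, none had an unadjusted p under 0.05, and the median log2 fold change was -0.06. HOXA10, a homeobox factor needed for receptivity, stood at 6.71, 6.41 and 7.38 CPM against 14.4, 7.54 and 10.005 CPM, lower in all 3 libraries. FOXL2, a forkhead factor of the ruminant endometrium, was abundant, at 2770, 7047 and 5229.8 CPM against 14793, 7031 and 4916 CPM. NR2F2, which relays progesterone signals in the stroma, was at 178, 287 and 393 CPM against 1433, 285 and 228 CPM. In both, reagent alone replicate 1 was the highest of the 6 libraries, and without it the log2 fold change went from -0.83 to -0.25 for FOXL2 and from -1.18 to 0.16 for NR2F2. Both were among the genes called lower without the filter, with edgeR adjusted p of 0.0178 for FOXL2 and 0.00201 for NR2F2.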

How the data were processed

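The authors deposited raw read counts per gene symbol. Per the submitters' processing notes, Trimmomatic, HISAT2, HTSeq and edgeR were used; their roles, the genome build and the strand setting are not stated in the sources used here. Libraries were made with the IDT xGen RNA kit from TRIzol-extracted, DNase-treated RNA, per the labels. Counts were filtered with filterByExpr, scaled by TMM and fitted for 3 groups together with edgeR 4.0.16 (glmQLFTest, R 4.3.3). A call was an adjusted p (Benjamini-Hochberg, 14874 genes) under 0.05. Standard errors are the log2 fold change over the root of F. The biological coefficient of variation was 0.26. Replicates differed by more than sampling noise. Scripts were tested on simulated data. RefSeq's ARS-UCD2.0 gene table matched 24552 of 30641 symbols and gave neighbours only.

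Named were DPPA3, the 12 higher and 12 lower genes of smallest p at 5 CPM or more, list members of smallest p, the 8 highest ratios of each DPPA3 mRNA library, and genes called by any fit; not all are printed. The comparison and lists were chosen with earlier results of these data known. The pooling of lists and the order of libraries were chosen after the values were seen. Deviations of equal replicate numbers correlated at 0.162, 0.137 and 0.104, all over 0.1, the last barely, which met the limit for pairing, although the labels state none; the fit reported has no block, and the blocked value is printed where a call changed. Alternatives were DESeq2 1.42.0 (size factors, Wald test), no filter, limma 3.58.1 voom, the 6 compared libraries alone, library sizes without DPPA3, a replicate block, and each of 9 libraries left out. Some genes of the lists are not reported here.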

Additional observations from a re-analysis of the deposited data

How the results depend on the processing

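For DPPA3 mRNA against reagent alone, the count of genes called was 1, and it was 66 without the filter, 9 by the DESeq2 Wald test and 2 with the replicate block; leaving out 1 library gave 1 to 20. For reagent alone against untreated control it was 0, and 18 without the filter, 2 by DESeq2 and 2 by voom; leaving out 1 library gave 0 to 1. Beyond IFITM1 the block changed no call. With voom, CXCL10 came to -0.35 and DNMT1 to 0.053. Leaving out 1 library gave ranges that crossed 0 for CXCL10 (-0.87 to 0.66; negative without reagent alone replicate 1 or DPPA3 mRNA replicate 2), DNMT1 (-0.077 to 0.067), LOC104973519 (-2.72 to 0.21) and NR2F2 (-1.58 to 0.16), both positive without reagent alone replicate 1, and LOC107132895 (-0.44 to 6.70; negative without DPPA3 mRNA replicate 1). The cause was not tested. The pooled interferon response median stayed between 0.33 and 1.14. Of 1278 values over 80 genes, 1192 kept direction and call, 76 passed the test only under the alternative, and 10 changed sign. DPPA3 was left out of this tally. None of the 80 genes was called in the main fit, so a kept call means not called in both, and no call could be lost. Reagent alone replicate 1 limits what can be seen at low levels.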
